A study of Triticum aestivum with 18 samples.

Results

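The leaf response of wheat seedlings to salt was measured by setting the third leaf of NaCl-treated seedlings (TY) against the third leaf of control seedlings (CY), with 3 RNA-seq libraries a side, which are 6 of the 18 libraries of the study. The variety was Jimai 22, which the labels call NaCl-tolerant, and the seedlings stood in 1/4 Hoagland solution with 150 mM NaCl in the TY group and with no added NaCl in the CY group. Leaves were taken after 4 days, and 10 leaves were mixed to make each library. The same treatment was applied to roots, which serve here only to ask whether a leaf change differed from the root change. Of the 134610 genes in the deposited count table, 62945 had enough counts in the 6 leaf libraries to be tested, and all of them entered the comparison without regard to function. Only 9733 of the genes tested carry a description. Families counted by description are therefore only their described members, and other members may have been missed.

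High external NaCl limits water uptake and loads the leaf with sodium and chloride. Leaves are known to respond by closing stomata, by making compatible solutes such as proline, by moving ions into vacuoles and by detoxifying reactive oxygen species, while growth and carbon fixation slow down. Bread wheat is a hexaploid that carries A, B and D copies of most genes, and its most abundant leaf transcripts encode the small chain of Rubisco and the chlorophyll a-b binding proteins of the light-harvesting antennae.

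Genes of light harvesting and carbon fixation fell in the salt-treated leaves, and genes of cytosolic ribosomal proteins rose. All 6 tested genes described as the first enzyme of proline synthesis rose and all 3 described as proline dehydrogenase fell. A pair of purple acid phosphatase genes and most aldehyde dehydrogenase genes that passed the test rose. Lipoxygenase genes went both ways, with 8 higher and 6 lower of 22. Most of the tested genes described as aquaporins, and most of those with the chalcone and stilbene synthase domain, fell. Genes with a ZIM (tify) domain, which include jasmonate repressors, had 1 higher and 23 lower of 44. Heat shock factors and cell wall genes had far more lower than higher DEGs, although most of their members were not called lower. Expression is given as CPM, which are counts per 1000000 counts of the library, scaled with TMM factors (trimmed mean of M values) over the 6 leaf libraries. A differentially expressed gene (DEG) is one whose p in edgeR's quasi-likelihood test was at most 0.05 after Benjamini-Hochberg adjustment. Fold changes are log2 values of NaCl over control leaves with their standard errors, and means carry the SD with n = 3 a group.

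In all, 14655 genes (23.3% of those tested) were called. Of these, 6348 (10.1% of those tested) were higher and 8307 (13.2%) were lower in NaCl leaves, and at an unadjusted p under 0.05 the number was 23636. The median size of the log2 change among DEGs was 1.13. A change of 3 or more on that scale was reached by 275 higher and 527 lower DEGs. The 3 NaCl libraries did not overlap the 3 control libraries for 27275 genes (43.3% of those tested), and 14591 of the DEGs were among them. The smallest p that an exact permutation test allows for 1 gene with 3 libraries a side is 0.1, so the calls rest on the spread that edgeR shares across genes. The number of DEGs was 8403 without NaCl replicate 1 and 8045 without NaCl replicate 3. The libraries are separate pools of leaves, and the p-values measure the spread between these pools.

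Library totals were 30363331 to 31944933 counts in NaCl leaves and 27689172 to 31801824 counts in control leaves. The 10 most abundant genes held 2.59% to 2.72% of the counts in NaCl leaves and 3.89% to 6.42% in control leaves, and the TMM factors were 1.08 to 1.17 in NaCl leaves and 0.811 to 0.962 in control leaves. Directions are therefore relative to this scaling. With scaling by library size alone the median log2 change over the genes tested moved up by 0.35, and 14880 of 19630 called genes (75.8%, where the main scaling has 43.3%) were higher. All 6348 higher DEGs stayed called as higher, but only 4749 of the 8307 lower DEGs stayed called as lower. No DEG was called in the opposite direction. Leaf markers (Rubisco small chain, chlorophyll a-b binding protein and phosphoribulokinase genes) were present at a summed 31009 to 37160 CPM in NaCl leaves and 72389 to 155887 CPM in control leaves. Of 45 markers of grain and embryo, 42 had no count in any leaf library, nor had either marker of flower and pollen. A list drawn up for roots summed to 147 to 191 CPM in NaCl leaves and 177 to 214 CPM in control leaves but only to 12.3 to 16.2 CPM in control roots, so it did not mark roots. Read counting can divide reads among the near-identical A, B and D copies and among members of gene families, so the value of a single gene is less certain than that of its family.

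**Figure D1:**
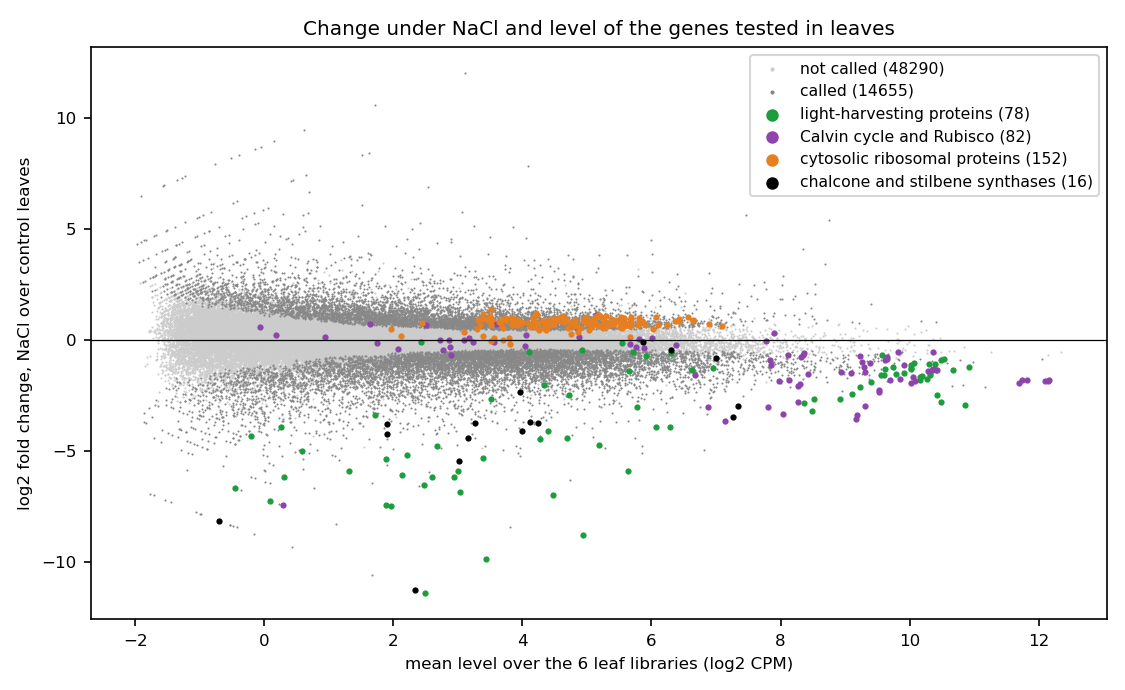
Log2 fold change of NaCl over control leaves against the mean log2 CPM of the 6 leaf libraries, with 1 point for each of the 62945 genes tested, DEGs in dark grey and 4 gene lists in colour. Light-harvesting, Calvin cycle and chalcone and stilbene synthase genes mostly lie below 0, the light-harvesting and Calvin cycle genes reaching the highest levels, and cytosolic ribosomal protein genes form a narrow band just above 0.

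Light-harvesting genes fell almost throughout. Chlorophyll a-b binding proteins bind the chlorophyll of the antennae that pass light energy to the photosystems. Of the 78 genes tested, 0 were higher and 70 lower, with a median log2 fold change of -2.58, where the median over all genes was 0.024. Their summed level was 15911, 19184 and 18266 CPM in the NaCl leaves, against 51868, 36980.0 and 70558 CPM in the control leaves. All NaCl libraries lay under all controls, and the controls differed among themselves more than the NaCl leaves did. The 2 most abundant DEGs of the list fell to different degrees. TraesCS5D02G329200 (chromosome 5D, 421421468 to 421422863, plus strand) had 342, 461 and 458 CPM in the NaCl leaves, against 3372, 2192 and 4266 CPM in the control leaves (log2 fold change -2.96 ± 0.30, adjusted p = 0.00106). The other, TraesCS1B02G432700, fell less, with 1024, 1384 and 1095 CPM in the NaCl leaves, against 2611, 2332 and 3179 CPM in the control leaves (-1.21 ± 0.22, adjusted p = 0.00712). At the other extreme, TraesCS1D02G306200 was nearly silent under NaCl, with 14 counts over the 3 NaCl libraries and 4746 over the 3 control libraries (-8.79 ± 0.84, adjusted p = 0.00094). All 14 counts came from NaCl replicate 2. The log2 fold changes of the antenna genes reached -11.42, and 61 of the 70 lower genes stayed called whichever library was left out.

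Rubisco, which fixes CO2, and the enzymes of the Calvin cycle that regenerate its substrate fell as well. Of 82 genes tested, 3 were higher and 49 lower (median -0.98), and their summed level was 27037 ± 1787 CPM in NaCl leaves and 80752 ± 31857 CPM in control leaves. The small chain of Rubisco is encoded in the nucleus by a large family, and all 25 tested members were lower. Their summed level was 13781, 16248 and 14117 CPM in the NaCl leaves, against 52587, 33142 and 81655 CPM in the control leaves. Small-chain genes were also the most abundant of all described genes per kb of gene length. The highest of them, TraesCS5D02G169900 (chromosome 5D, 266325112 to 266326079, minus strand), stood at 2301 CPM per kb in NaCl leaves and 8178 CPM per kb in control leaves, and its levels were 1991, 2112 and 1938 CPM in the NaCl leaves, against 7151, 4249 and 10068 CPM in the control leaves (-1.83 ± 0.32, adjusted p = 0.00618). Its counterpart on chromosome 5B, TraesCS5B02G162800, changed by -1.85 ± 0.31. A less abundant member, TraesCS2A02G067100, fell by the widest margin among small-chain genes whose mean log2 CPM reached 4, with 21.0, 22.5 and 18.9 CPM in the NaCl leaves, against 194, 133 and 456 CPM in the control leaves (-3.65 ± 0.44, adjusted p = 0.00174). The NaCl leaves were thus close to each other in this family, and control replicate 3 was the highest of the controls. Among the other steps all 3 phosphoribulokinase genes and both genes each of sedoheptulose-1,7-bisphosphatase and fructose-1,6-bisphosphatase, of which 1 is described as cytosolic, were lower (-1.13 to -0.68). Families that include glycolytic enzymes had smaller shares lower. Glyceraldehyde-3-phosphate dehydrogenase had 7 of 17 genes lower, aldolase 5 of 14 and phosphoglycerate kinase 3 of 12. The 3 genes that rose include TraesCS7B02G213300, described as glyceraldehyde-3-phosphate dehydrogenase, a name that also covers the glycolytic enzyme, with 47.3, 41.3 and 55.4 CPM in the NaCl leaves, against 20.6, 21.9 and 24.5 CPM in the control leaves (1.10 ± 0.16, adjusted p = 0.00348).

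Subunits of the photosystems, the cytochrome b6-f complex and the electron carriers showed a smaller change. Of 56 genes tested, 1 was higher and 27 were lower (median -0.74), and the summed level was 7169 ± 303 CPM in NaCl leaves and 13887 ± 2989 CPM in control leaves. All 6 genes for the photosystem II protein Psb28 were lower (-1.44 to -0.91). Ferredoxin, the carrier that hands electrons to its NADP reductase, had 590.0, 495 and 584 CPM in the NaCl leaves, against 1888, 1141 and 2112 CPM in the control leaves summed over the 2 genes described as chloroplastic, both called lower. The 1 gene that rose was a ferredoxin--NADP reductase, TraesCS2A02G252800, at a low level of 8.86, 10.2 and 9.50 CPM in the NaCl leaves, against 2.28, 3.01 and 2.60 CPM in the control leaves (1.85 ± 0.18, adjusted p = 0.000975). Other genes of that reductase summed to far more and 3 of them fell. Chlorophyll synthesis held DEGs of both directions. Glutamyl-tRNA reductase, which commits glutamate to the pathway, had 5 of 9 genes lower, among them TraesCS1A02G173100 with 19.99, 27.3 and 29.9 CPM in the NaCl leaves, against 81.5, 49.3 and 102 CPM in the control leaves (-1.59 ± 0.28, adjusted p = 0.00594). Uroporphyrinogen decarboxylase and protoporphyrinogen oxidase, which act later, had 2 of 6 and 1 of 6 higher and none lower. Of the steps after these, Mg chelatase had 0 higher and 0 lower of 6, and protochlorophyllide oxidoreductase 0 higher and 2 lower of 5. Over the whole list 3 were higher and 7 lower of 32, and with scaling by library size alone this turned to 11 higher and 5 lower. In photorespiration, which recycles the product of the oxygenase reaction of Rubisco, 6 of 20 genes were lower and none higher. They include TraesCS6A02G312200, a glycine cleavage H protein gene with 258, 299 and 267 CPM in the NaCl leaves, against 702, 454 and 889 CPM in the control leaves (-1.31 ± 0.25, adjusted p = 0.00843). In pooled leaf RNA, fewer photosynthetic cells and less RNA per cell cannot be told apart.

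**Figure D2:**
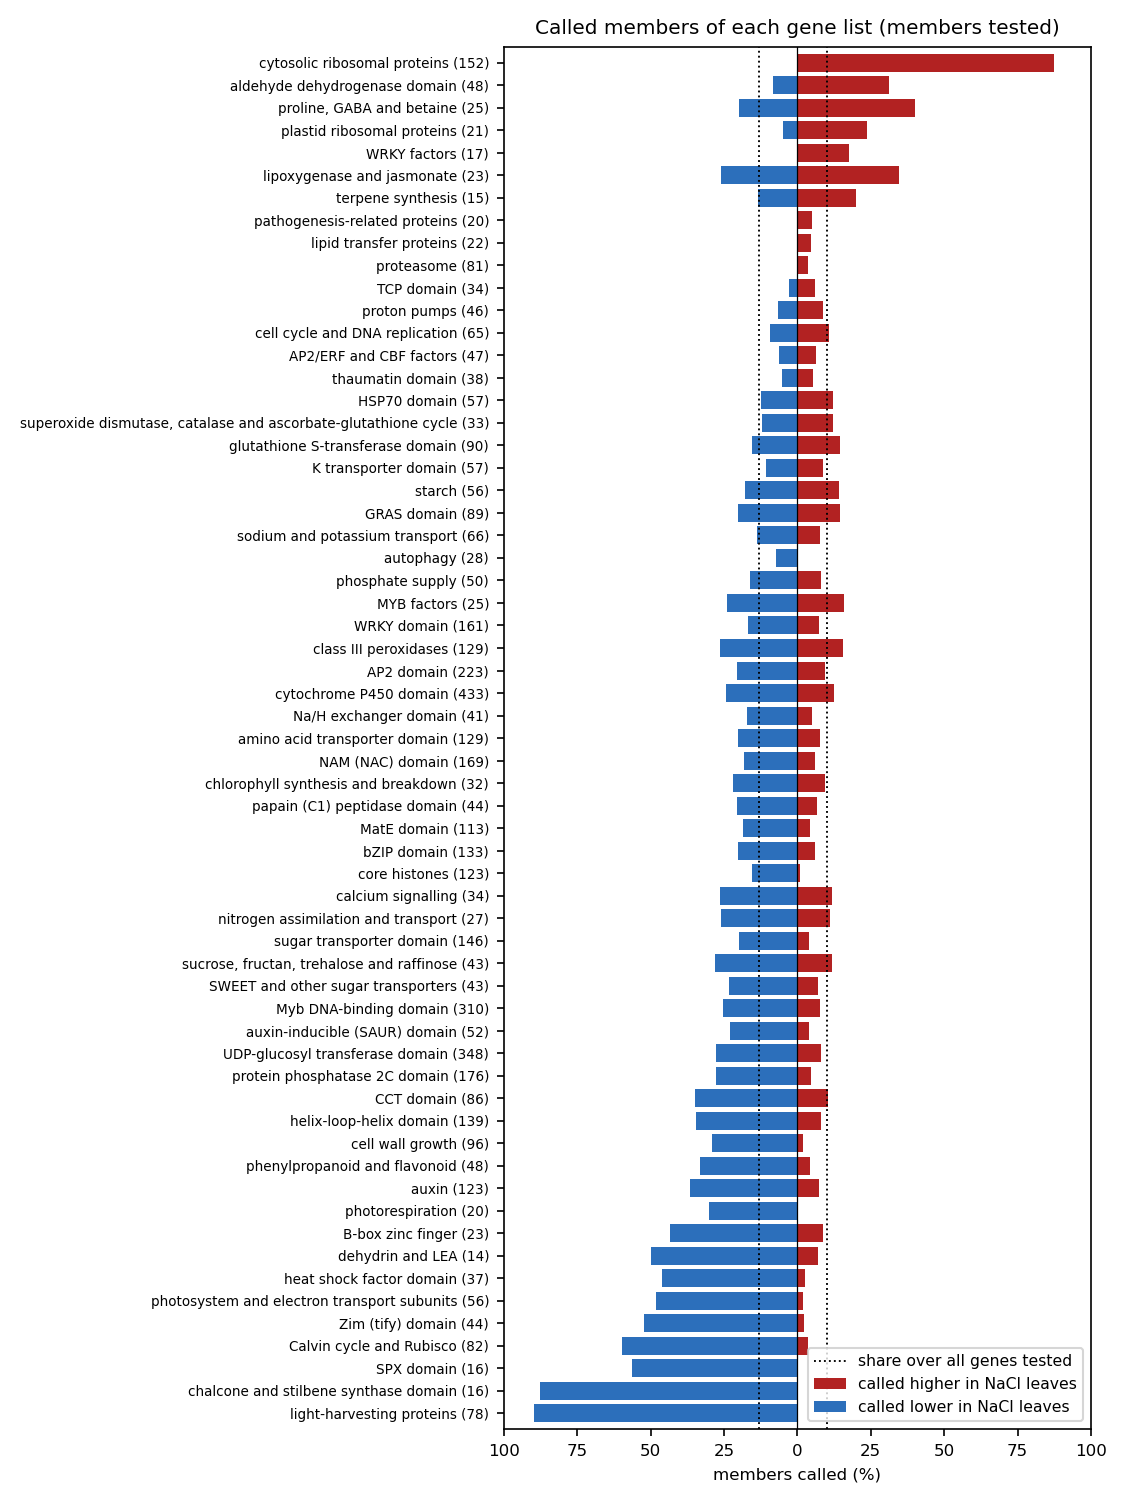
Share of the tested members of each gene list that were called higher (red, to the right) or lower (blue, to the left) in NaCl leaves, for the 61 lists with 14 or more members tested and at least 1 call, with the shares over all genes tested as dotted lines (10.1% and 13.2%). Cytosolic ribosomal proteins stand at one end with 133 of 152 higher, and light-harvesting proteins at the other with 70 of 78 lower.

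Genes of the cytosolic ribosome moved the other way and did so as a body. Ribosomal proteins form the 2 subunits that translate messenger RNA. Of 152 genes tested, 133 were higher and 0 lower, and 141 did not overlap between the groups. The changes were small and alike, with a median of 0.75, and only 18 of the 133 reached 1 on the log2 scale. The summed level was 6807, 5892 and 6503 CPM in the NaCl leaves, against 3660.2, 4091 and 3606 CPM in the control leaves. The direction was the same with scaling by library size alone (144 higher, 0 lower), and 82 genes stayed called whichever library was left out. An example is TraesCS1B02G254000, with 155, 135 and 152 CPM in the NaCl leaves, against 96.7, 82.8 and 88.7 CPM in the control leaves (0.72 ± 0.15, adjusted p = 0.0118). It lost its call without NaCl replicate 1 or NaCl replicate 3 (adjusted p = 0.0503 each). Plastid ribosomal proteins had 5 higher and 1 lower of 21. The 50S ribosomal protein L31 gene TraesCS3D02G224800 was among those that rose, with 53.4, 59.1 and 60.0 CPM in the NaCl leaves, against 29.8, 24.7 and 35.6 CPM in the control leaves (0.94 ± 0.17, adjusted p = 0.00718). Subunits of the proteasome, which degrades marked proteins, had 3 higher and 0 lower of 81, where 10.1% and 13.2% of all genes were called, but 29 higher with scaling by library size alone.

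Proline metabolism changed on both sides of the pathway. Delta-1-pyrroline-5-carboxylate synthase (P5CS) makes the precursor of proline from glutamate, and proline dehydrogenase breaks proline down. All 6 P5CS genes tested were higher (1.03 to 3.82 on the log2 scale), and their summed level was 271, 132 and 163 CPM in the NaCl leaves, against 39.4, 37.2 and 49.2 CPM in the control leaves. The gene with the widest change was TraesCS3B02G395900 (chromosome 3B, 623824481 to 623830911, plus strand), with 119.6, 28.5 and 55.8 CPM in the NaCl leaves, against 4.68, 3.52 and 6.26 CPM in the control leaves (3.82 ± 0.51, adjusted p = 0.0024). NaCl replicate 1 was over 4 times as high as NaCl replicate 2 for this gene, yet all 3 lay above all controls. A second P5CS gene, TraesCS3A02G363700, had 43.8, 36.3 and 28.7 CPM in the NaCl leaves, against 9.72, 5.21 and 11.7 CPM in the control leaves (2.03 ± 0.29, adjusted p = 0.00322). Pyrroline-5-carboxylate reductase, which makes proline from that precursor, had both genes higher (median 0.79). All 3 proline dehydrogenase genes were lower (-2.07 to -1.83), and they summed to 229, 311 and 219 CPM in the NaCl leaves, against 1051, 951 and 827 CPM in the control leaves. The P5CS and proline dehydrogenase families were singled out within the list after their values had been seen. Glutamate decarboxylase, which makes GABA, had 1 gene higher and 2 lower of 11. The abundant TraesCS4D02G052500 fell, with 131, 199 and 139.6 CPM in the NaCl leaves, against 408, 350.4 and 487 CPM in the control leaves (-1.41 ± 0.22, adjusted p = 0.00418). Because that gene and proline dehydrogenase were abundant, the list of proline, GABA and betaine genes summed to 1452 ± 147 CPM in NaCl leaves and 2539.6 ± 169 CPM in control leaves, although 10 of its 25 members were higher and 5 lower.

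Of the genes with a dehydrin, LEA or cold-response description, those that passed the test were lower with 1 exception. These small hydrophilic proteins are known to build up in dehydrated or cold-treated wheat tissue. Of 14 genes tested, 1 was higher and 7 were lower, and the summed level was 2124 ± 392 CPM in NaCl leaves and 4656 ± 778 CPM in control leaves. The cold acclimation protein gene WCS19 (TraesCS2B02G447600, chromosome 2B, 640489826 to 640490643, minus strand) had 15.1, 19.8 and 22.7 CPM in the NaCl leaves, against 299, 205 and 285 CPM in the control leaves (-3.77 ± 0.24, adjusted p = 0.000418). The most abundant DEG of the list, the gene of the cold-responsive protein WCOR15-2D (TraesCS2D02G425300), had 286, 388 and 360.4 CPM in the NaCl leaves, against 1411, 914 and 1458 CPM in the control leaves (-1.87 ± 0.24, adjusted p = 0.00216). A LEA/RAB-related COR gene, TraesCS5A02G503900, fell by 1.25 on that scale (adjusted p = 0.00768). In each of these 3 genes the groups were apart. The dehydrin gene WZY1-2, named after its values had been seen, fell too, with 105, 255 and 87.7 CPM in the NaCl leaves, against 340.2, 583 and 592 CPM in the control leaves (log2 fold change -1.76), and the other members that fell carry a cold-response or cold acclimation name. The dehydrin gene WZY2, a gene described only as dehydrin and the genes described as group 2 and group 3 LEA proteins were not called. The group 3 gene had the highest mean level of the list in NaCl leaves, with 985 ± 144 CPM there and 1051 ± 174 CPM in control leaves. The 1 that rose, TraesCS2A02G460600, described only as a cold-responsive protein, had 13.8, 8.85 and 8.45 CPM in the NaCl leaves, against 1.95, 3.63 and 5.44 CPM in the control leaves (1.49 ± 0.35, adjusted p = 0.0182), and without NaCl replicate 1 its adjusted p was 0.0658. Among 9 genes of abscisic acid (ABA) synthesis and signalling 0 were higher and 4 lower (1 and 1 with scaling by library size alone). All 3 zeaxanthin epoxidase genes, of its synthesis, were lower (-0.65 to -0.52), and the other was a protein phosphatase 2C gene. The list held no tested gene of ABA breakdown. Outside it, the ABA 8'-hydroxylase gene TraesCS6A02G271300, whose product inactivates the hormone, had 121, 154 and 97.4 CPM in the NaCl leaves, against 184, 269 and 266 CPM in the control leaves (-0.95 ± 0.23, adjusted p = 0.0196). Its adjusted p was 0.0716 without NaCl replicate 1 and 0.0769 without NaCl replicate 3. Protein phosphatases of type 2C include the clade that represses ABA signalling, and of 176 genes with that domain 8 were higher and 49 lower. One of them, TraesCS2B02G449200, had 77.7, 107 and 71.1 CPM in the NaCl leaves, against 165, 179 and 156 CPM in the control leaves (-0.97 ± 0.19, adjusted p = 0.00931).

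**Figure D3:**
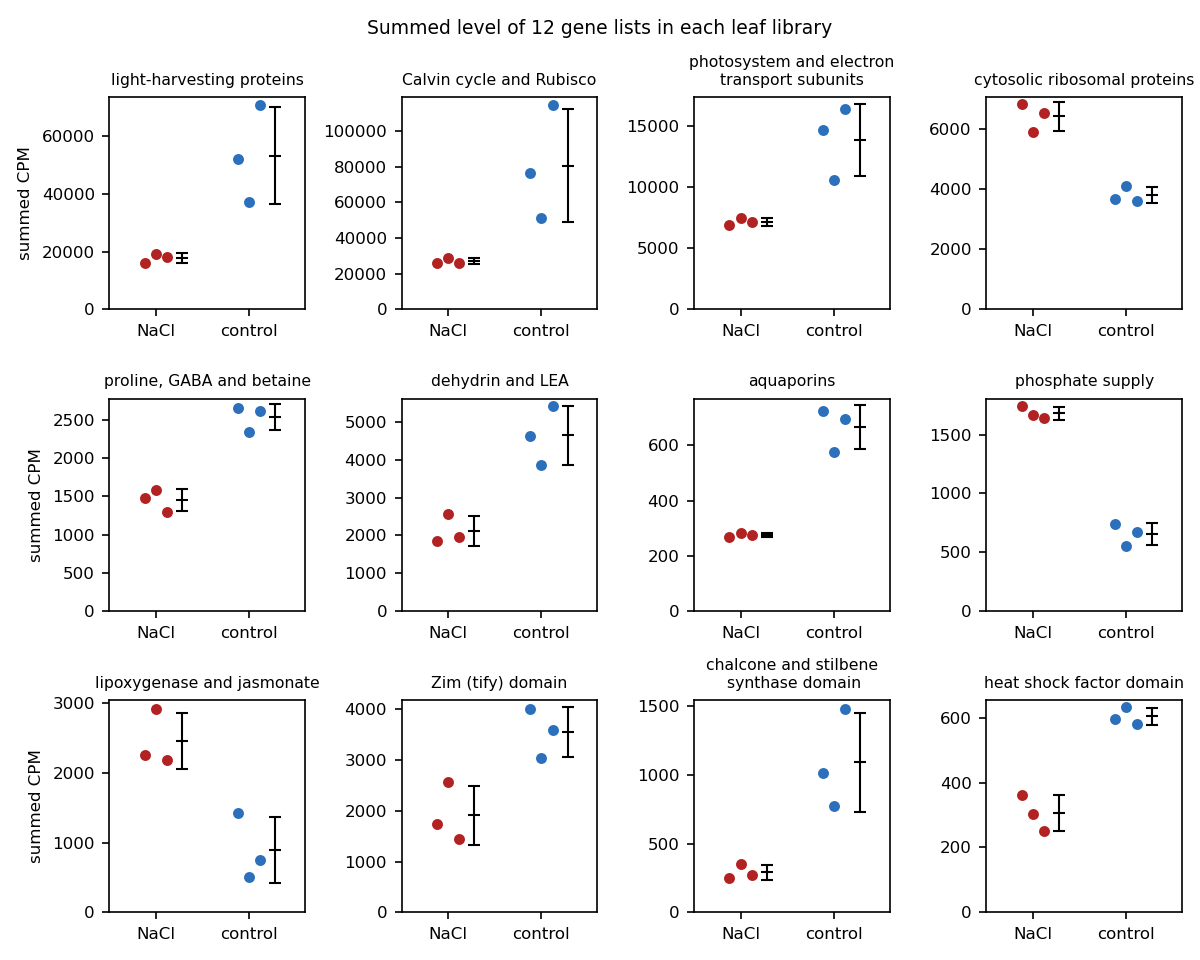
Summed CPM of 12 gene lists in each leaf library (red NaCl, blue control), with the mean and SD of the 3 libraries as bars beside the points and every axis starting at 0. In all 12 panels the NaCl libraries lie apart from the control libraries, below them for 9 lists and above them for cytosolic ribosomal proteins, phosphate supply and lipoxygenases.

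Ion transporter genes changed in both directions. Of 66 genes described as sodium or potassium transporters, 5 were higher and 9 lower (21.2% called against 23.3% of all genes), and with scaling by library size alone 10 were higher and 4 lower. Sodium/hydrogen exchangers move sodium into the vacuole or out of the cell. By domain, 2 of 41 were higher and 7 lower (22.0% called, against 23.3% of all genes), and 3 and 3 with scaling by library size alone. The described exchanger gene TraesCS2A02G121000 had 10.1, 16.7 and 6.35 CPM in the NaCl leaves, against 20.4, 25.5 and 40.6 CPM in the control leaves (-1.38 ± 0.37, adjusted p = 0.0279). It was not called without NaCl replicate 1 (0.0907), NaCl replicate 3 (0.0726) or control replicate 3 (0.0794, all adjusted p). The potassium transporter gene TraesCS2A02G256100 had 38.1, 33.1 and 40.0 CPM in the NaCl leaves, against 92.0, 69.4 and 68.0 CPM in the control leaves (-1.04 ± 0.17, adjusted p = 0.0052) and stayed called throughout. Proton pumps energize such exchange, and 4 of 46 genes were higher and 3 lower (15.2% called, against 23.3% of all genes). The plasma membrane ATPase gene TraesCSU02G073200 rose, at a low level of 6.21, 3.24 and 4.90 CPM in the NaCl leaves, against 0.691, 1.17 and 1.44 CPM in the control leaves (2.11 ± 0.35, adjusted p = 0.00492), and another, TraesCS4A02G282900, fell by 0.89 on the log2 scale (adjusted p = 0.00624).

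Most of the tested genes described as water channels fell. Aquaporins carry water across the plasma membrane and the tonoplast. Of 10 genes tested 8 were lower and 0 higher (median -1.27), and the summed level was 269, 283 and 276 CPM in the NaCl leaves, against 726, 575 and 695 CPM in the control leaves. The NaCl libraries were close to each other and far below every control. The gamma-type tonoplast intrinsic protein gene TraesCS4A02G410800 had 37.1, 65.3 and 45.9 CPM in the NaCl leaves, against 175, 112 and 166 CPM in the control leaves (-1.61 ± 0.26, adjusted p = 0.00438). The aquaporin gene TraesCS6B02G450000 had 77.2, 56.4 and 66.8 CPM in the NaCl leaves, against 139.9, 139.9 and 159 CPM in the control leaves (-1.13 ± 0.17, adjusted p = 0.00365).

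Phosphate supply genes changed in both directions, with 4 higher and 8 lower of 50, but 14 higher and 5 lower with scaling by library size alone. The share called, 24.0%, was close to the 23.3% of all genes. Purple acid phosphatases release phosphate from organic compounds, and the gene with the largest rise of all abundant described genes was one of them. TraesCS4B02G348600 (chromosome 4B, 642097890 to 642102012, plus strand) had 714, 557 and 571 CPM in the NaCl leaves, against 71.9, 13.2 and 24.5 CPM in the control leaves (4.07 ± 0.58, adjusted p = 0.00302). A gene on chromosome 4D, TraesCS4D02G343000, had 603, 648 and 650.0 CPM in the NaCl leaves, against 218, 25.1 and 90.8 CPM in the control leaves (2.51 ± 0.62, adjusted p = 0.022), and in both genes control replicate 1 was the highest control and control replicate 2 the lowest. The 4D gene lost its call without NaCl replicate 1 (adjusted p = 0.0525), NaCl replicate 3 (0.0527) or control replicate 3 (0.0709), at log2 changes of 2.37 to 2.55. In NaCl leaves the pair made up most of the summed level of the 46 phosphatase genes tested, which was 1714, 1639.6 and 1615 CPM in the NaCl leaves, against 697, 511 and 613 CPM in the control leaves. A new gene of the authors with that domain (chromosome 5A, 680085052 to 680089177, plus strand) rose in the same way, with 75.9, 53.2 and 59.6 CPM in the NaCl leaves, against 14.8, 2.75 and 4.97 CPM in the control leaves (3.07 ± 0.54, adjusted p = 0.00602). Over the family only 4 annotated genes rose and 5 fell, among these TraesCS2A02G506000 with 9.61, 9.26 and 10.7 CPM in the NaCl leaves, against 22.4, 18.9 and 26.3 CPM in the control leaves (-1.19 ± 0.17, adjusted p = 0.00273). Phosphate transporters, which take phosphate up, had all 3 genes of that description lower (-1.36 to -0.77). Genes with an SPX domain, which senses the phosphate status of the cell, were lower for 9 of 16 and higher for 0. One of them, TraesCS7D02G231300, had 8.34, 7.002 and 9.02 CPM in the NaCl leaves, against 17.0, 14.5 and 20.02 CPM in the control leaves (-1.08 ± 0.18, adjusted p = 0.00471).

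Sugar, starch and nitrogen genes changed in both directions. Sucrose-phosphate synthase, the sucrose phosphatases SPP1 and SPP2 and the transporters SUT1A and SUT1D, which make and move sucrose, each had a called gene that fell. SUT1D (TraesCS4D02G286500) had 87.7, 89.9 and 83.5 CPM in the NaCl leaves, against 149, 137 and 157 CPM in the control leaves (-0.76 ± 0.15, adjusted p = 0.00828). Sucrose synthase, which cleaves sucrose, had 4 of 19 higher and 3 lower. The fructan 1-exohydrolase w2 gene TraesCS6D02G064400, whose product breaks down the storage fructan of wheat, rose with 153, 191 and 154 CPM in the NaCl leaves, against 69.5, 95.3 and 70.6 CPM in the control leaves (1.08 ± 0.19, adjusted p = 0.00608), while sucrose:sucrose 1-fructosyltransferase, which begins fructan synthesis, fell by 2.53. The genes described as fructan 1-exohydrolase w1 (0.79) and sucrose:fructan 6-fructosyltransferase (0.42) were not called. The latter, also of fructan synthesis, had 428, 69.5 and 242 CPM in the NaCl leaves, against 268, 144 and 141 CPM in the control leaves. The list as a whole had 5 higher and 12 lower of 43, a balance that turned to 12 higher and 7 lower with scaling by library size alone. Beta-amylase releases maltose from starch, and its genes were called higher 4 times and lower 4 times in 19. The one with the highest level among those that rose, TraesCS1B02G229000, had 80.4, 99.2 and 147 CPM in the NaCl leaves, against 16.9, 37.1 and 41.3 CPM in the control leaves (1.77 ± 0.35, adjusted p = 0.00931). An alpha-amylase gene, TraesCS3A02G248000, fell by 0.83 on the log2 scale (adjusted p = 0.00844). The SWEET-type transporter gene TraesCS1D02G125900, described as a bidirectional sugar transporter, had 5.67, 3.70 and 4.08 CPM in the NaCl leaves, against 0.366, 0.110 and 0.505 CPM in the control leaves (3.77 ± 0.44, adjusted p = 0.00167), a wide change at a low level.

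Nitrate reductase, the first enzyme of nitrate assimilation, had 4 of 5 genes lower, and the family summed to 85.3, 127 and 92.2 CPM in the NaCl leaves, against 673, 491 and 350.4 CPM in the control leaves. Glutamine synthetase had 3 of 8 lower. Glutamate dehydrogenase, which can release ammonium from glutamate, had 3 of 6 higher and 0 lower. The gene TraesCS2D02G388800 had 81.1, 41.5 and 67.4 CPM in the NaCl leaves, against 23.5, 18.6 and 16.6 CPM in the control leaves (1.69 ± 0.26, adjusted p = 0.00378). Every NaCl library exceeded the highest control. These 3 families were taken out of the nitrogen list after their values were known, and the list itself had 3 higher and 7 lower of 27.

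Genes that remove reactive oxygen species showed no common direction. Superoxide dismutase, catalase and the enzymes of the ascorbate-glutathione cycle had 4 higher and 4 lower of 33 tested (10 and 3 with scaling by library size alone). The share called was 24.2%, close to the 23.3% of all genes. The catalase gene TraesCS6D02G048300 rose widely, with 84.9, 143 and 114 CPM in the NaCl leaves, against 2.32, 34.8 and 4.66 CPM in the control leaves (3.03 ± 0.86, adjusted p = 0.0354), but control replicate 2 stood far above the other controls. It kept its call only without that library and lost it without any other, at adjusted p values of 0.0631 to 0.0873. Class III peroxidases, secreted enzymes that use hydrogen peroxide, had 20 higher and 34 lower of 129 (41.9% called, against 23.3% of all genes), and 27 higher and 29 lower with scaling by library size alone. The most abundant that rose, TraesCS1B02G115900, had 267, 326 and 303 CPM in the NaCl leaves, against 159.6, 110.0 and 118 CPM in the control leaves (1.21 ± 0.19, adjusted p = 0.00453). The peroxidase TraesCS2D02G107600 had the widest rise among abundant described DEGs of that name, with 19.8, 40.7 and 31.9 CPM in the NaCl leaves, against 1.79, 3.05 and 4.04 CPM in the control leaves (3.38 ± 0.35, adjusted p = 0.00118), and TraesCS1A02G077700 fell by 1.62 (adjusted p = 0.00621). Genes with a glutathione S-transferase domain, whose products conjugate reactive compounds to glutathione, had 13 higher and 14 lower of 90 (29 and 7 with scaling by library size alone). The domain member TraesCS1D02G081200 had 28.6, 22.2 and 15.3 CPM in the NaCl leaves, against 59.5, 74.9 and 78.5 CPM in the control leaves (-1.69 ± 0.24, adjusted p = 0.00301). Aldehyde dehydrogenases oxidize the aldehydes that arise from damaged lipids, and also act in betaine synthesis. They rose more often than they fell, with 15 higher and 4 lower of 48 (median 0.42). An abundant member, TraesCS7B02G116800, had 126, 129 and 129 CPM in the NaCl leaves, against 60.8, 89.3 and 61.9 CPM in the control leaves (0.86 ± 0.19, adjusted p = 0.0133), and its adjusted p was 0.0519 without control replicate 1.

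Heat shock factor DEGs were lower with 1 exception, and chaperone DEGs went both ways. Heat shock factors are transcription factors that switch on chaperone genes, and 17 of 37 genes with that domain were lower and 1 was higher. The factor gene TraesCS5A02G383800 had 35.8, 28.8 and 17.7 CPM in the NaCl leaves, against 74.3, 76.6 and 84.8 CPM in the control leaves (-1.52 ± 0.25, adjusted p = 0.0047). Genes with an HSP70 chaperone domain had 7 higher and 7 lower of 57 (24.6% called, against 23.3% of all genes). With scaling by library size alone 18 were higher and 6 lower. Among them TraesCS4D02G207500 (chromosome 4D, 355858178 to 355860803, minus strand) fell most, with 23.6, 17.5 and 8.45 CPM in the NaCl leaves, against 138, 168 and 184 CPM in the control leaves (-3.31 ± 0.35, adjusted p = 0.00131). The 2 groups were far apart for this gene. The abundant member TraesCS5D02G117600 rose slightly, with 172, 149.8 and 167 CPM in the NaCl leaves, against 90.3, 96.6 and 115 CPM in the control leaves (0.70 ± 0.16, adjusted p = 0.0177), and had an adjusted p of 0.0648 to 0.0681 without NaCl replicate 1, NaCl replicate 3 or control replicate 1.

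**Figure D4:**
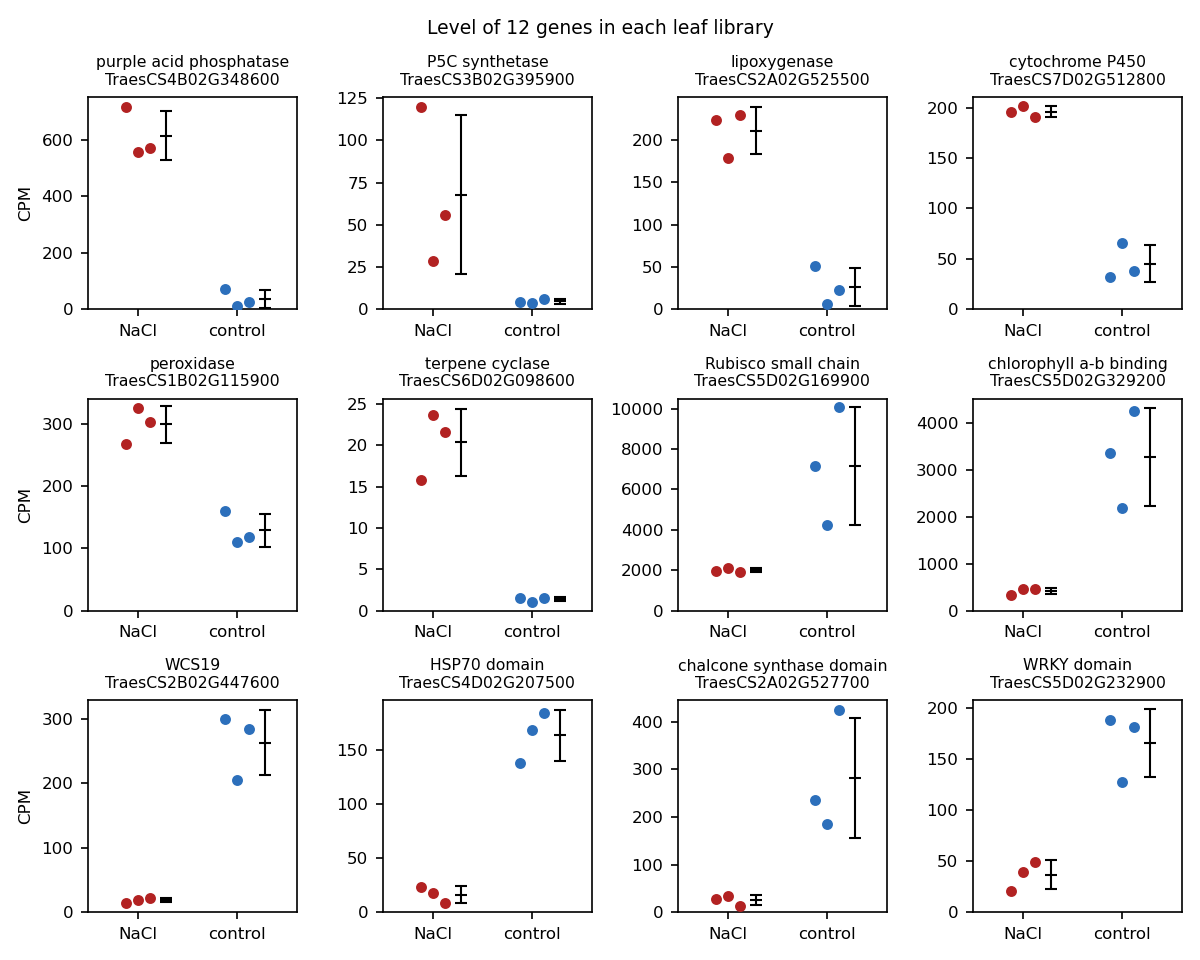
CPM of 12 genes in each leaf library (red NaCl, blue control), with the mean and SD of the 3 libraries as bars beside the points and every axis starting at 0. In each panel the 3 NaCl libraries lie apart from the 3 controls, above them for the first 6 genes and below them for the last 6.

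Lipoxygenase DEGs went both ways, and DEGs with a ZIM (tify) domain were lower with 1 exception. Lipoxygenases oxidize fatty acids and supply the jasmonate pathway, and 8 of 22 genes rose while 6 fell. Only 1 of the higher and 3 of the lower calls held in all 6 fits that left out a library. The jasmonate list summed to 2264, 2916 and 2191 CPM in the NaCl leaves, against 1421, 515 and 754 CPM in the control leaves. Most of the level came from a few genes, and control replicate 1 was the highest control. TraesCS2A02G525500 (chromosome 2A, 745666877 to 745671118, minus strand) had 223, 179 and 229 CPM in the NaCl leaves, against 51.2, 5.91 and 22.3 CPM in the control leaves (2.99 ± 0.63, adjusted p = 0.0116). The most abundant lipoxygenase DEG that rose, TraesCS5D02G013400, had 565, 672 and 562 CPM in the NaCl leaves, against 287, 31.8 and 115 CPM in the control leaves (2.05 ± 0.63, adjusted p = 0.0458). The call of this gene needed most libraries, since its adjusted p was 0.0889 to 0.126 without any 1 NaCl library or without control replicate 3. In the opposite direction, TraesCS2B02G333600 had 9.98, 13.4 and 7.60 CPM in the NaCl leaves, against 96.8, 80.7 and 69.0 CPM in the control leaves (-2.99 ± 0.24, adjusted p = 0.00071). Proteins with a ZIM (tify) domain include the JAZ repressors that hold jasmonate responses down and whose own genes jasmonate induces. Of 44 such genes 1 was higher and 23 were lower (median -1.52), but 1 and 18 with scaling by library size alone. Their summed level was 1913 ± 579 CPM in NaCl leaves and 3544 ± 489.6 CPM in control leaves. One member, TraesCS4D02G296000, had 112, 98.3 and 58.3 CPM in the NaCl leaves, against 279, 230.4 and 243 CPM in the control leaves (-1.48 ± 0.25, adjusted p = 0.00519).

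Auxin genes fell more often than they rose, with 9 higher and 45 lower of 123. Auxin efflux carriers, which direct the flow of the hormone, had 5 of 7 lower (median -1.96), auxin response factors 18 of 57 lower and auxin-responsive proteins 22 of 56 lower. An auxin-responsive protein gene, TraesCS3A02G276500, had 80.1, 146 and 60.9 CPM in the NaCl leaves, against 267, 221 and 266 CPM in the control leaves (-1.39 ± 0.31, adjusted p = 0.0138; 0.0581 without NaCl replicate 1). All 3 genes described as auxin-repressed proteins rose, by 1.82 to 1.95 on the log2 scale, and they were picked out after their values had been seen. They summed to 1038, 1435 and 1523 CPM in the NaCl leaves, against 233, 583 and 273 CPM in the control leaves, and the one named by rule, TraesCS4B02G070300, had 367, 526 and 534 CPM in the NaCl leaves, against 78.4, 196 and 95.5 CPM in the control leaves (1.95 ± 0.35, adjusted p = 0.00656). Genes with a SAUR-type auxin-inducible domain had 2 higher and 12 lower of 52 (26.9% called, against 23.3% of all genes). One that fell was TraesCS6A02G238300 at 18.7 ± 4.11 CPM in NaCl leaves and 55.2 ± 12.2 CPM in control leaves (-1.56 ± 0.22, adjusted p = 0.00305). Calcium signalling genes had 4 higher and 9 lower of 34, and 7 higher and 5 lower with scaling by library size alone. A calcium-dependent protein kinase gene, TraesCS2D02G207400, fell by 1.32 (adjusted p = 0.00417), and an annexin gene, TraesCS7A02G180100, whose product binds membranes in the presence of calcium, rose by 1.06 (adjusted p = 0.0131).

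Most genes with the chalcone and stilbene synthase domain fell, among them both tested genes described as chalcone synthase. Chalcone synthase performs the first step of flavonoid synthesis from phenylpropanoids. Of 16 genes with the chalcone and stilbene synthase domain 0 were higher and 14 lower (median -3.75), and the summed level was 249, 354 and 275 CPM in the NaCl leaves, against 1014, 774 and 1477 CPM in the control leaves. The 2 most abundant DEGs with this domain lie on chromosomes 2A and 2B. TraesCS2A02G527700 (chromosome 2A, 747086930 to 747090056, plus strand) had 27.6, 34.8 and 14.1 CPM in the NaCl leaves, against 236, 186 and 424 CPM in the control leaves (-3.47 ± 0.42, adjusted p = 0.00176), and TraesCS2B02G558400 fell by 2.98 (adjusted p = 0.00176). A gene of the next enzyme's family, chalcone-flavonone isomerase (TraesCS5B02G488900), had 3.11, 4.28 and 2.81 CPM in the NaCl leaves, against 27.9, 18.3 and 46.4 CPM in the control leaves (-3.18 ± 0.35, adjusted p = 0.00136). Phenylalanine ammonia-lyase opens the phenylpropanoid pathway, and 7 of 26 genes were lower and 0 higher. The gene TraesCS6D02G212400 had 32.1, 37.5 and 26.5 CPM in the NaCl leaves, against 76.0, 76.1 and 126 CPM in the control leaves (-1.53 ± 0.24, adjusted p = 0.00422). A cinnamyl alcohol dehydrogenase gene of lignin synthesis, TraesCS6D02G162800, rose by 1.30 (adjusted p = 0.00743).

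Other secondary metabolism held single genes with wide rises. The terpene cyclase gene TraesCS6D02G098600 (chromosome 6D, 62118495 to 62128909, minus strand) had 15.8, 23.7 and 21.5 CPM in the NaCl leaves, against 1.55, 1.10 and 1.59 CPM in the control leaves (3.85 ± 0.23, adjusted p = 0.000418), while its list had 3 higher and 2 lower of 15. Cytochrome P450 enzymes, which oxidize many plant products, had 54 higher and 105 lower of 433, but 90 higher and 78 lower with scaling by library size alone. TraesCS7D02G512800 had 195, 201 and 190.5 CPM in the NaCl leaves, against 31.8, 65.8 and 38.5 CPM in the control leaves (2.11 ± 0.27, adjusted p = 0.00207), and TraesCS3B02G091400 had 53.1, 47.9 and 43.4 CPM in the NaCl leaves, against 173, 145 and 309 CPM in the control leaves (-2.12 ± 0.29, adjusted p = 0.0025). UDP-glucosyl transferases, which attach sugars to such products, had 28 higher and 96 lower of 348 (54 and 72 with scaling by library size alone), with TraesCS6A02G173600 falling by 1.58 (adjusted p = 0.00676). MatE transporters, which export metabolites, had 5 higher and 21 lower of 113 (23.0% called, against 23.3% of all genes). With scaling by library size alone 14 were higher and 18 lower. One of them, TraesCS7B02G137200, had 20.05, 20.5 and 15.2 CPM in the NaCl leaves, against 69.8, 61.3 and 100.5 CPM in the control leaves (-2.05 ± 0.23, adjusted p = 0.00139). Among defence proteins 1 of 20 pathogenesis-related genes was higher and 0 lower (3 and 0 with scaling by library size alone). Lipid transfer protein genes had 1 of 22 higher and 0 lower (10 and 0 with scaling by library size alone), although their median log2 fold change was 0.75 and their summed level, 2162, 1794 and 1900.4 CPM in the NaCl leaves, against 1199, 1040.4 and 1704 CPM in the control leaves, did not overlap between the groups. The 1 pathogenesis-related gene that rose, Wheatwin-2 (TraesCS3D02G524700), had 16.1, 7.20 and 5.27 CPM in the NaCl leaves, against 2.07, 4.22 and 1.01 CPM in the control leaves (1.96 ± 0.54, adjusted p = 0.0331), but an adjusted p of 0.0767 to 0.114 without NaCl replicate 1, control replicate 1 or control replicate 3. The lipid transfer gene TraesCS3D02G052100 was among the most abundant described genes per kb in NaCl leaves (1853 CPM per kb in NaCl leaves and 1204 CPM per kb in control leaves) and was not called (0.62 ± 0.26, adjusted p = 0.113).

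Transcription factor families contained DEGs of both directions, and the shares called in the WRKY (24.2%) and NAM (24.3%) lists were close to the 23.3% of all genes. The WRKY domain, common in factors of stress and defence, had 12 higher and 27 lower of 161, and 25 higher and 21 lower with scaling by library size alone. TraesCS5D02G232900 had 21.4, 39.6 and 49.4 CPM in the NaCl leaves, against 188, 128 and 181 CPM in the control leaves (-2.17 ± 0.31, adjusted p = 0.00304), whereas the WRKY45-like gene TraesCS2A02G489500 had 184, 234 and 228 CPM in the NaCl leaves, against 129, 104 and 127 CPM in the control leaves (0.84 ± 0.17, adjusted p = 0.011). The direction in the WRKY family thus depended on the gene. The NAM domain of NAC factors had 10 higher and 31 lower of 169 (24 and 17 with scaling by library size alone). The NAC gene TraesCS7A02G305200 rose with 67.7, 74.8 and 101 CPM in the NaCl leaves, against 13.3, 23.2 and 10.1 CPM in the control leaves (2.38 ± 0.31, adjusted p = 0.00229), and TraesCS4A02G219700 fell with 57.2, 44.3 and 18.8 CPM in the NaCl leaves, against 226, 201 and 198 CPM in the control leaves (-2.38 ± 0.36, adjusted p = 0.00367). Genes with an AP2 domain, which covers the ethylene response and CBF factors, were higher 21 times and lower 46 times in 223 (35 and 37 with scaling by library size alone). Among them the DRF-like gene TraesCS6D02G281200 fell by 1.79 (adjusted p = 0.00162) and the CBF gene CBFIVd-D9 (TraesCS5D02G317100) rose by 0.94 (adjusted p = 0.0132).

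Helix-loop-helix factors had 11 higher and 48 lower of 139, but 26 and 29 with scaling by library size alone. BHLH27 (TraesCS2B02G289900) had 70.6, 112 and 40.3 CPM in the NaCl leaves, against 306, 219 and 231 CPM in the control leaves (-1.76 ± 0.34, adjusted p = 0.00887). The Myb domain had 24 higher and 79 lower of 310, and the bZIP domain 8 higher and 27 lower of 133. The share called in the bZIP list was 26.3%, against 23.3% of all genes. With scaling by library size alone the numbers were 50 and 49 for Myb and 21 and 11 for bZIP. The Myb gene TraesCS2D02G378400 fell by 1.31 (adjusted p = 0.0158; 0.0554 without control replicate 1) and the bZIP gene TraesCS5D02G068800 by 1.10 (adjusted p = 0.0064). B-box and CCT domains mark factors of light and flowering time responses. B-box genes were higher 2 times and lower 10 times in 23 (5 and 7 with scaling by library size alone), for instance TraesCS3B02G156900 at 59.2 ± 13.0 CPM in NaCl leaves and 118 ± 7.79 CPM in control leaves (-0.99 ± 0.19, adjusted p = 0.00881) and, in the other direction, TraesCS2B02G406600 at 8.11 ± 1.70 CPM in NaCl leaves and 2.21 ± 1.12 CPM in control leaves (1.88 ± 0.35, adjusted p = 0.00751). CCT genes were higher 9 times and lower 30 times in 86 (16 and 18 with scaling by library size alone), and the abundant TraesCS7D02G220300 rose, with 159, 183 and 185 CPM in the NaCl leaves, against 98.7, 72.9 and 86.3 CPM in the control leaves (1.03 ± 0.17, adjusted p = 0.00507). The GRAS factor gene TraesCS7B02G078300 had 37.0, 46.7 and 37.5 CPM in the NaCl leaves, against 6.99, 9.87 and 1.28 CPM in the control leaves (2.74 ± 0.56, adjusted p = 0.0103).

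DEGs of cell wall growth were mainly lower, though most members were not called. Xyloglucan endotransglucosylase/hydrolases (XTHs) cut and rejoin the glucan tethers of the wall, and 19 of 50 were lower and 0 higher. Pectinesterase had 4 of 9 lower, expansin 2 of 10 and cellulose synthase 2 of 21. Over the list of wall genes 2 were higher and 28 lower of 96. The XTH gene TraesCS6D02G248500 had 93.0, 55.7 and 31.0 CPM in the NaCl leaves, against 173, 177 and 145 CPM in the control leaves (-1.46 ± 0.35, adjusted p = 0.0187), with an adjusted p of 0.0571 without NaCl replicate 2 and 0.0556 without control replicate 1. The pectate lyase gene TraesCS6D02G170500 rose at a low level, with 4.95, 4.72 and 5.02 CPM in the NaCl leaves, against 1.10, 1.54 and 1.94 CPM in the control leaves (1.68 ± 0.25, adjusted p = 0.00354). Core histones, the proteins that package DNA, had 1 higher and 19 lower of 123 (14 and 10 with scaling by library size alone), among them the histone H2A gene TraesCS1D02G285800 with 64.1, 69.4 and 67.3 CPM in the NaCl leaves, against 112, 109 and 121 CPM in the control leaves (-0.77 ± 0.14, adjusted p = 0.00722). Cell cycle genes had 7 higher and 6 lower of 65 (16 and 4 with scaling by library size alone). The replication clamp gene PCNA (TraesCS4B02G366100) rose by 1.14 (adjusted p = 0.0138) and the kinesin gene TraesCS2D02G385000 fell by 1.96 (adjusted p = 0.00618).

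The remaining genes of the 12 largest rises and 12 largest falls among abundant DEGs came from varied families. Of the rises, a new gene with a WRKY domain (chromosome 4B, 11715402 to 11716860, minus strand) had 30.6, 52.1 and 34.0 CPM in the NaCl leaves, against 1.34, 8.85 and 1.52 CPM in the control leaves (3.31 ± 0.66, adjusted p = 0.00981), and a new gene with the reverse transcriptase domain of retrotransposons (chromosome 5A, 65979844 to 65986099, plus strand) had 43.1, 26.7 and 35.4 CPM in the NaCl leaves, against 2.40, 4.04 and 3.89 CPM in the control leaves (3.35 ± 0.26, adjusted p = 0.000658). The Tubby-like F-box gene TraesCS2D02G584900 had 83.9, 71.8 and 97.2 CPM in the NaCl leaves, against 17.4, 14.3 and 17.5 CPM in the control leaves (2.36 ± 0.18, adjusted p = 0.000658). A dirigent protein gene, TraesCS7D02G053800, rose by 3.21 (adjusted p = 0.0179; 0.0608 without control replicate 3), and a new gene with a galacturonan-binding domain of wall-associated receptor kinases (chromosome 2B, 732049266 to 732050595, plus strand) by 2.82 (adjusted p = 0.015; 0.0601 without control replicate 1). A glycosyltransferase gene, TraesCS2D02G031000, rose by 2.68 (adjusted p = 0.0235), but was called in only 1 of the 6 fits that left out a library, the one without control replicate 2 (adjusted p 0.0503 to 0.0622 in the others). Of the falls, a new gene with a protein kinase domain (chromosome 6D, 23420816 to 23425506, minus strand) had 8.60, 7.23 and 7.09 CPM in the NaCl leaves, against 99.7, 67.8 and 61.8 CPM in the control leaves (-3.32 ± 0.22, adjusted p = 0.00043). The serine/threonine kinase gene TraesCS5D02G144800 had 7.28, 5.41 and 5.10 CPM in the NaCl leaves, against 40.3, 38.1 and 53.0 CPM in the control leaves (-2.88 ± 0.21, adjusted p = 0.000562). Both kinase genes were far apart between the groups. The fatty acyl-CoA reductase gene TraesCS5D02G372300, of the pathway that makes wax alcohols, had 5.67, 7.78 and 4.37 CPM in the NaCl leaves, against 26.8, 29.7 and 87.2 CPM in the control leaves (-3.01 ± 0.47, adjusted p = 0.00417). The hexosyltransferase gene TraesCS6B02G342100 fell by 2.82 (adjusted p = 0.00116) and the beta-carotene hydroxylase gene TraesCS4D02G314400 of xanthophyll synthesis by 2.71 (adjusted p = 0.00703). The XTH gene TraesCSU02G175000 fell by 2.85 (adjusted p = 0.015; 0.0562 without NaCl replicate 3) and the rhomboid-like gene TraesCS4B02G356600 by 2.83 (adjusted p = 0.0131; 0.0531 without NaCl replicate 1).

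The share of DEGs was alike on the 3 subgenomes of wheat. The share of tested genes called was 23.1% on the A, 22.9% on the B and 24.1% on the D chromosomes. It increased with expression level, through 5 classes of mean log2 CPM from 11.5% in the lowest to 44.9% in the highest. The share was 18.1% among new genes of the authors and 24.4% among annotated genes.

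Autophagy, the recycling of cell contents in the vacuole, was what the study set out to relate to salt tolerance. Of its 28 genes tested 0 were higher and 2 lower (3 and 0 with scaling by library size alone), against 10.1% and 13.2% of all genes, and neither lower gene stayed called in every fit that left out a library. For 3 genes that were also followed in leaves by qRT-PCR, the primers listed by the study are printed below. Whether they also match other copies of these genes was not tested. Each is given 5′ to 3′ with the last 5 bases at the 3′ end in capitals.
CDPK27 (TraesCS5B02G109300) forward: gccgccttccaatACTTT
CDPK27 (TraesCS5B02G109300) reverse: ttatcctgatctacttcGCCTA
CRK10 (TraesCS3D02G500800) forward: gtggctccattatCGTCA
CRK10 (TraesCS3D02G500800) reverse: tcttctggcctatTCGTG
ATG8A (TraesCS6B02G214000) forward: ggaaaggaggcaagCTGAA
ATG8A (TraesCS6B02G214000) reverse: gcatctcgttagggacaAGGTA
In these counts none of the 3 was a DEG. The calcium-dependent protein kinase gene TraesCS5B02G109300 had 1.44, 1.71 and 1.56 CPM in the NaCl leaves, against 0.163, 1.21 and 0.194 CPM in the control leaves (1.56 ± 0.67, adjusted p = 0.124). Its groups did not overlap, but control replicate 2 lay close to the NaCl leaves. The cysteine-rich receptor-like kinase gene TraesCS3D02G500800 had 2.85, 2.98 and 1.76 CPM in the NaCl leaves, against 0, 2.53 and 0.350 CPM in the control leaves (1.37 ± 0.94, adjusted p = 0.321), and here control replicate 2 lay within the NaCl range. The ATG8A gene TraesCS6B02G214000 (chromosome 6B, 289381815 to 289382405, plus strand) had no count in any NaCl leaf library and 9 counts over the 3 control libraries, too few to be tested. With a floor of 3 counts set for the NaCl group and the 9 control counts taken as exact, it was 4.05-fold lower in NaCl leaves. The counting error of the 9 counts and the spread between libraries are not in this value, so it is no lower limit.

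Whether a leaf change differed from the root change was tested as the difference of the 2 NaCl changes (leaf minus root) over 12 libraries. Of 79339 genes tested, 8790 (11.1%) differed, 3898 with the leaf change above the root change and 4892 with it below. Among the 14655 leaf DEGs, which were called on the same leaf libraries, 3975 (27.1%) differed. In roots 23163 of the 79339 genes (29.2%) were called. Genes with the chalcone and stilbene synthase domain had 6 called higher and 1 lower of 24 in roots, and the leaf change lay below the root change for 4. The leaf change of TraesCS2A02G527700 lay below the root change by 4.11 on the log2 scale (adjusted p = 0.00193), with a change of 0.64 in roots (adjusted p = 0.336). The purple acid phosphatase gene TraesCS4B02G348600 rose in leaves and had a root change of -0.06 (difference 4.13, adjusted p = 0.0042). The WRKY gene TraesCS5D02G232900 fell in leaves and rose in roots by 3.19 (adjusted p = 0.000902), a difference of -5.36 (adjusted p = 0.000691). Wheatwin-2 (TraesCS3D02G524700) rose in both tissues but far more in roots (10.51), a difference of -8.56 (adjusted p = 0.00119). P5CS (TraesCS3B02G395900) rose in both tissues, with a root change of 3.08 and a difference of 0.74 that was not called (adjusted p = 0.568). By lists, the leaf change lay below the root change for 39 of 452 peroxidases and above it for 10, and for ribosomal proteins it lay above in 4 of 153 and below in 0. Of the light-harvesting genes 52 were lower and 0 higher in roots, and the leaf change lay above the root change in 12 of 78 and below in 0.

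**Figure D5:**
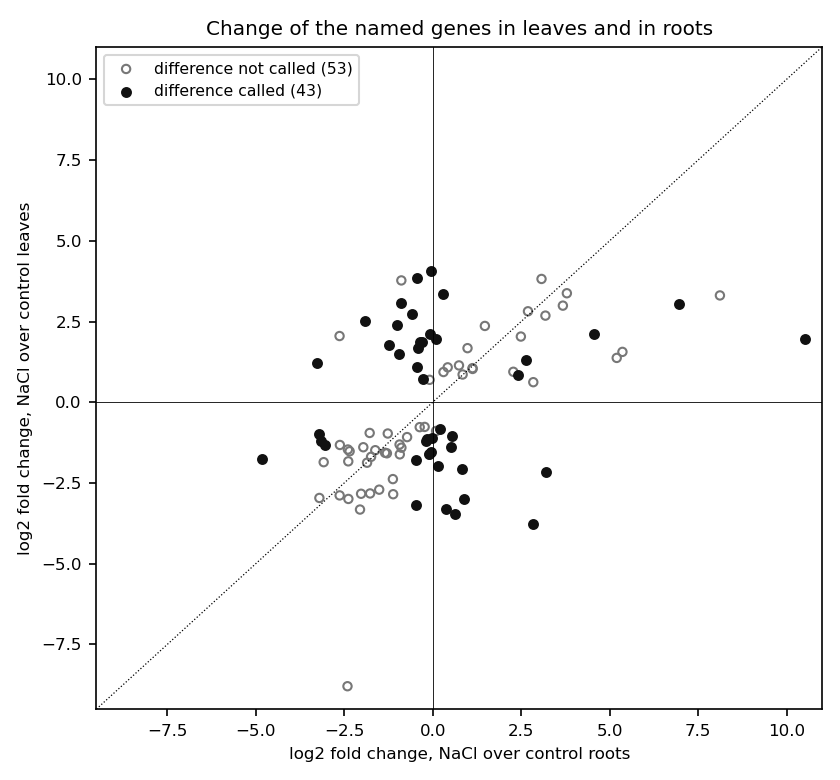
Log2 fold change in leaves (vertical axis) against that in roots (horizontal axis) for the 96 genes named here that were counted in both tissues, with the dotted line marking equal changes. Filled points are the 43 genes whose difference between the tissues was called, and open points are the 53 whose difference was not called.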

How the data were processed

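RNA of pooled leaves was sequenced, and the 3 NaCl and 3 control leaf libraries were grouped by their labels. The deposited count of each gene in each library was made by the authors from paired 150 bp reads on the IWGSC Chinese Spring assembly, with new genes added, and was not normalized. The authors also deposited FPKM, which scale counts by gene length and library, and these served an alternative only. HISAT2 2.0.5 and Bowtie 0.12.2 are named in the submitters' processing notes, without their roles, together with a mouse build (mm8) that cannot apply to wheat. The labels speak of 4 replicates per treatment, and 3 libraries per group were analysed. Columns with the authors' own comparisons (75, fold changes and p-values) were not used.

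For the 6 leaf libraries, low counts were removed by filterByExpr, TMM factors were computed and the quasi-likelihood test was run in edgeR 4.0.16 under R 4.3.3, and the difference between tissues as an interaction on 12 libraries. The alternative tools were DESeq2 1.42.0 and limma 3.58.1. Tables were handled with pandas 2.3.3 and numpy 2.4.6 in Python 3.11.15, and figures with matplotlib 3.10.9. CPM use the 6 leaf TMM factors. On simulated data for this comparison, in which 200 genes of 61770 were changed, 11 of 100 changes of 1 and 84 of 100 changes of 2 on the log2 scale were recovered, with 16 false calls. Few changed genes make the adjusted p harder to pass, so recovery in the leaf libraries themselves may differ.

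Gene lists (42 by description, 30 by domain) hold annotated genes only, a limit set after the data had been seen, and the members, lists and tests were chosen with earlier results of these data known. Genes were named by rule: the 12 largest rises and 12 largest falls among described DEGs whose mean log2 CPM reached 4 and whose groups did not overlap, 1 per description, the 2 most abundant DEGs of each list in its main direction and 1 in the other, the 5 most abundant described genes per kb in either group, and 3 genes measured by qRT-PCR. Of the 204 genes so selected, 102 are named. Families within a list were not chosen by this rule. They were picked out with their values known, also where the text does not say so. Alternatives were RLE factors, scaling by library size alone, DESeq2, limma on log2(FPKM + 1) and log2(FPKM + 0.1), no filter or a CPM of 1 in 3 libraries, 9 or 18 libraries in 1 fit, the replicate number as a block, new genes left out, a gene-length trend removed, a log2 change of 1 or more, a prior count of 2, and fits that each left out 1 library.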

Additional observations from a re-analysis of the deposited data

Results flagged for a closer look

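The 102 named genes were looked through for a NaCl change that differed between leaves and roots by the interaction test, and 43 passed at an adjusted p of 0.05 or less, 21 with the leaf change above the root change and 22 with it below. Over all genes tested 11.1% differed, and among leaf DEGs 27.1%. Most of the 102 genes were named for their leaf change, and the interaction test uses the same leaf libraries. The number that passed is therefore partly set by the choice of genes. The differences (leaf minus root, log2) are given without an explanation.

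In 17 genes that rose in leaves, the leaf change lay above the root change. The differences were 4.46 for TraesCS1B02G115900, 4.42 for TraesCS4D02G343000, 4.29 for TraesCS6D02G098600, 4.13 for TraesCS4B02G348600, 3.96 for the new phosphatase gene, 3.40 for TraesCS7A02G305200, 3.32 for TraesCS7B02G078300, 3.07 for the new gene with a reverse transcriptase domain, 3.01 for TraesCS1B02G229000, 2.42 for TraesCS2A02G460600, 2.24 for TraesCS2B02G406600, 2.20 for TraesCSU02G073200, 2.14 for TraesCS2A02G252800, 2.10 for TraesCS2D02G388800, 1.84 for TraesCS4B02G070300, 1.55 for TraesCS7B02G213300 and 1.00 for TraesCS1B02G254000.

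In 5 genes that rose in leaves, the root change was the higher. The differences were -8.56 for TraesCS3D02G524700, -3.94 for TraesCS6D02G048300, -2.45 for TraesCS7D02G512800, -1.57 for TraesCS2A02G489500 and -1.35 for TraesCS6D02G162800.

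In 17 genes that fell in leaves, the leaf change lay below the root change. The differences were -6.62 for TraesCS2B02G447600, -5.36 for TraesCS5D02G232900, -4.11 for TraesCS2A02G527700, -3.87 for TraesCS2B02G558400, -3.68 for TraesCS4D02G207500, -2.88 for TraesCS7B02G137200, -2.71 for TraesCS5B02G488900, -2.11 for TraesCS2D02G385000, -1.91 for TraesCS2A02G121000, -1.59 for TraesCS2A02G256100, -1.50 for TraesCS1A02G173100, -1.48 for TraesCS6D02G212400, -1.32 for TraesCS6D02G281200, -1.07 for TraesCS5D02G068800, -1.04 for TraesCS3A02G248000, -1.02 for TraesCS2A02G506000 and -0.98 for TraesCS6B02G450000.

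In 4 genes that fell in leaves, roots fell further. The differences were 3.07 for TraesCS2B02G289900, 2.20 for TraesCS3B02G156900, 1.95 for TraesCS1B02G432700 and 1.72 for TraesCS6A02G312200.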

How the results depend on the processing

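The total of 14655 DEGs stayed within 1.5 times that number with DESeq2, limma on log2(FPKM + 1) or log2(FPKM + 0.1), RLE factors, scaling by library size alone, either other filter, 9 or 18 libraries in 1 fit, new genes left out, the length trend removed, a prior count of 2 and the replicate block. It was 8634 (3434 higher, 5200 lower) with a log2 change of 1 or more. With scaling by library size alone it was 19630, of which 14880 were higher and 4750 lower. With each leaf library left out in turn it ranged from 8045 to 13999, with 3124 to 6015 higher and 4921 to 7984 lower. The lowest totals were 8403 without NaCl replicate 1 and 8045 without NaCl replicate 3, and without control replicate 1 the number of higher DEGs was 3888. Genes whose change differed between tissues numbered 5296 to 8995 when 1 library was left out, with 5296 without control roots replicate 2 and 5647 without NaCl roots replicate 2, against 8790 with all 12. Leaving out a library leaves fewer samples. The causes of the other moves were not tested.

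The replicate numbers did not pair the samples, since the correlations of deviations of same-numbered leaf libraries were 0.073, 0.010 and -0.027 and not every library correlated best with its own number. With the replicate block 12826 genes were called (5242 higher, 7584 lower), and 6999 differed between tissues.

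With scaling by library size alone, 11 lists with more than 2 lower members for each higher one turned to more higher than lower, and other lists whose balance turned have both counts beside them. The members called lower then numbered 5 for chlorophyll synthesis, 7 for sucrose and fructan, 10 for core histones, 5 for calcium signalling, 21 for the WRKY domain, 17 for NAM, 11 for bZIP, 49 for Myb, 6 for papain-type peptidases, 17 for amino acid transporters and 17 for sugar transporters. Without control replicate 3, chlorophyll synthesis had 4 lower members and more higher ones. Of the 102 named genes 98 were called, 80 of these with each leaf library left out in turn, and 95 with scaling by library size alone, and none of the 101 that were tested changed direction in any alternative. At this depth and number of libraries, the simulation recovered 84 of 100 changes of 2 but only 11 of 100 changes of 1 on the log2 scale, so a gene that was not called may have changed.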

Other observations

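Several gene groups outside the comparisons above had calls mainly in 1 direction, although most of their members were not called. They were picked out after their values had been seen, and over all genes 10.1% were higher and 13.2% lower. Second counts in parentheses are those with scaling by library size alone. Genes with the GTPase domain of translation elongation factors had 24 higher and 2 lower of 85 (33 and 0), and the RNA-binding S1 domain 9 higher and 1 lower of 29 (15 and 0). The glutamine amidotransferase domain, which supplies nitrogen to biosynthetic enzymes, had 6 higher and 1 lower of 21 (10 and 0). Rhomboid proteases, which cut proteins within membranes, had 0 higher and 13 lower of 39 (2 and 11), sodium/calcium exchangers 0 higher and 11 lower of 30 (3 and 6), and the ligand-binding domain of glutamate-receptor channels 0 higher and 12 lower of 32 (2 and 6). Genes with the membrane-binding C2 domain had 9 higher and 50 lower of 162 (23 and 33), and family 1 glycosidases 3 higher and 22 lower of 66 (13 and 14).

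The lists not described above had calls as follows, where 10.1% of all genes tested were higher and 13.2% lower. Starch genes had 8 higher and 10 lower of 56 (13 and 3 with scaling by library size alone), sugar transporters of the SWEET and other described types 3 and 10 of 43, and genes with a sugar transporter domain 6 and 29 of 146. Amino acid transporters had 10 and 26 of 129, potassium transporters by domain 5 and 6 of 57 (11 and 2 with scaling by library size alone), papain-type peptidases 3 and 9 of 44, thaumatin-like proteins 2 and 2 of 38, and glycolate oxidase-type enzymes 2 and 3 of 10. GRAS factors had 13 higher and 18 lower of 89 (20 and 12 with scaling by library size alone), TCP factors 2 and 1 of 34, and factors by description 3 and 0 of 17 (WRKY), 0 and 0 of 11 (NAC), 3 and 3 of 47 (AP2/ERF and CBF), 4 and 6 of 25 (MYB), 0 and 3 of 4 (bZIP) and 0 and 1 of 2 (bHLH). Phenylpropanoid and flavonoid genes by description had 2 higher and 16 lower of 48, described heat shock genes 0 and 5 of 12 and described glutathione S-transferases 0 and 1 of 4. None was called among 11 carotenoid cleavage, 4 senescence and 1 circadian clock genes by edgeR.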
